A study of Mus musculus with 16 samples.

Results

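The hippocampal transcriptome of mice lacking the amyloid precursor protein was set against that of wild type mice, using the 4 arrays titled as APPKO and the 4 titled as WT of a series of 16 Affymetrix mouse expression arrays. APPKO mice carried the genotype APP-/- and WT mice were wild type at the same gene. The remaining 8 arrays came from mice named N-dCKO, with the genotype APP-/-; APLP2-/-, and from mice named APLP2KO, with the genotype APLP2-/-. All mice were 2-month-old males of a strain given as C56/BL6, and all samples were total RNA of hippocampal tissue. By the series title, the loss of both genes was conditional and neuronal. The design of the targeted App allele, the breeding of the controls and whether the arrays of a group came from separate animals are not given in the sources used here, so a p-value reflects variation among these arrays that could be technical.

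The amyloid precursor protein is a single-pass membrane protein, abundant in neurons, that is cut by secretases. Alpha-secretases of the ADAM family and beta-secretase release its extracellular part, and the gamma-secretase complex then cuts the remaining stub within the membrane, which yields amyloid-beta after beta cleavage and sets free an intracellular domain. The precursor and its relatives APLP1 and APLP2 bind adaptors and sorting receptors inside the cell and adhesion and matrix proteins outside it. The comparison of APPKO with WT asks which hippocampal transcripts differ when App alone is lost.

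Signals were comparable between the groups. The median signal of an array was 86.9 to 99.3 in APPKO and 79.7 to 91.7 in WT, and RNA integrity, read from Gapdh as 3′ over 5′ probe set signal, was 0.745 to 0.806 in APPKO and 0.752 to 0.786 in WT (exact two-sided permutation test, p = 0.343). All 8 hippocampal markers examined, among them Prox1 of dentate granule neurons and Wfs1 of CA1 pyramidal neurons, had signals above the filter. Of markers of neighbouring tissue, 1 of 2 of the striatum (Rgs9, at 271 to 357 in APPKO and 241 to 349 in WT, but not the dopamine receptor gene Drd2) and 3 of 4 of the thalamus (Prkcd, Lef1 and Ntng1) were also above it. The choroid plexus transcript Ttr read 29100 to 37200 in APPKO and 26300 to 33500 in WT, so the samples of both groups held choroid plexus RNA. In bulk tissue of this kind, fewer cells of a type and less RNA per cell cannot be told apart.

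App was the gene that separated the groups. Its brightest probe set read 2596, 2380, 2344 and 2724 in APPKO, against 17310, 18140, 19940 and 18600 in WT. The arrays of the groups lay far apart, and the mean APPKO signal was 13.6% of the WT mean. The log2 fold change was -2.88 ± 0.07 (SE), with an adjusted p of 2.56e-16 by limma. A second App probe set read 610.6, 655.2, 688.6 and 688.6 in APPKO, against 11470, 12060, 11320 and 10990 in WT, which is 5.77% of the WT mean. Each of these probe sets had p = 0.0286 in an exact permutation test (two-sided), the smallest value that 4 arrays per group allow. The 2 other App probe sets averaged 5.393 and 15.76 in APPKO and 5.937 and 10.17 in WT, below the filter in both groups, and carry no usable level.

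**Figure D1:**
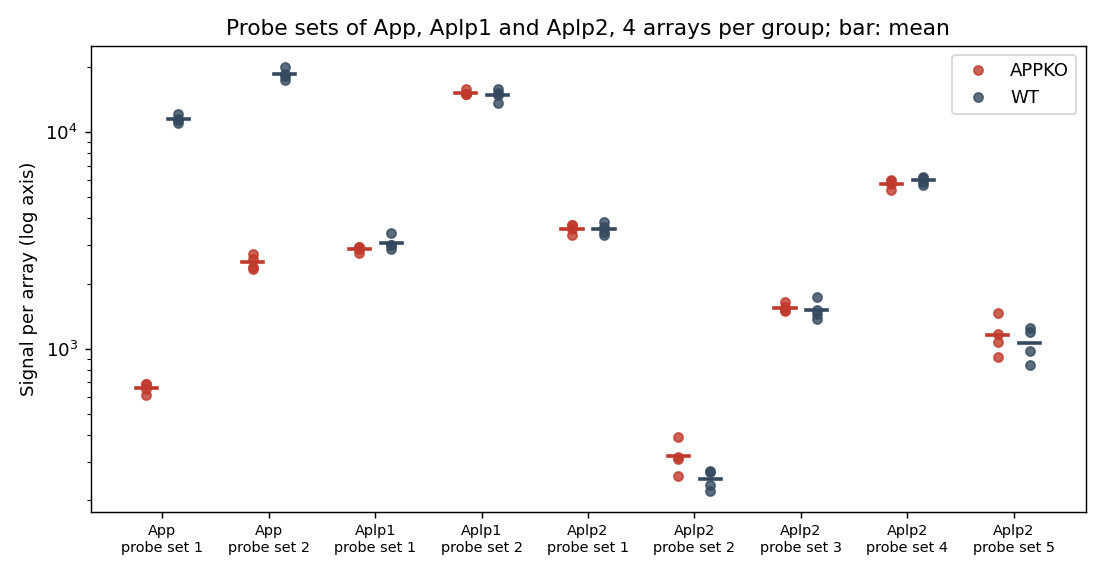
Signal of each array (vertical axis, log scale) for the App, Aplp1 and Aplp2 probe sets above the filter, with the 4 APPKO arrays left of the 4 WT arrays and a bar at each mean. Both App probe sets are separated between the groups, at 13.6% and 5.77% of the WT mean, while the APPKO and WT arrays of the Aplp1 and Aplp2 probe sets lie side by side.

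The other members of the precursor family, which share its overall structure and overlap with it in function, did not pass the test. Aplp1 read 15020, 14930, 15850 and 14960 in APPKO, against 13580, 14790, 15870 and 15100 in WT. Aplp2 read 5734, 5945, 5406 and 6026 in APPKO, against 6186, 5857, 6168 and 5725 in WT. The groups overlapped for both genes, with log2 fold changes of 0.04 ± 0.06 for Aplp1 and -0.05 ± 0.12 for Aplp2. Of the 5 Aplp2 probe sets above the filter, the one furthest from WT was dim, with 316.0, 311.5, 259.8 and 389.5 in APPKO, against 221.5, 273.6, 269.3 and 235.7 in WT (exact permutation test, two-sided, p = 0.0857).

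Transcripts of the secretases lay close to WT, with beta-secretase the enzyme whose cut starts the route to amyloid-beta. The beta-secretase Bace1 read 2952, 3155, 3261 and 3167 in APPKO, against 3175, 3009, 3172 and 3340 in WT, a log2 fold change of -0.02 ± 0.06. The APPKO and WT arrays overlapped. Its relative Bace2 was dim, with 132.3, 144.2, 100.9 and 110.7 in APPKO, against 149.6, 125.2, 130.3 and 119.7 in WT (-0.11 ± 0.18). Among the alpha-secretases, Adam10 differed by 0.00 and Adam17 by -0.16 on the log2 scale. Adam9 read 2331, 2250, 2308 and 2272 in APPKO, against 2418, 2417, 2434 and 2469 in WT, so that every APPKO array lay below every WT array, by a small log2 difference of -0.09 ± 0.05. Of the gamma-secretase subunits, the catalytic Psen2 (0.02), the substrate receptor Ncstn (0.08), the scaffold subunits Aph1a (-0.05) and Aph1b (-0.03) and Psenen (-0.04) all had log2 fold changes within 0.1 of zero, and none of these genes passed the test. Aph1c was not tested here.

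Across the 11664 genes tested, App was the only one with an adjusted p below 0.05, which is 0.00857% of the genes. The smallest adjusted p of any other gene was 0.698. At an unadjusted p below 0.05 there were 369 genes lower in APPKO (3.16%) and 235 higher (2.01%). The 4 APPKO arrays lay entirely below the 4 WT arrays for 183 genes (1.57%) and entirely above them for 124 (1.06%). The median log2 fold change of all genes was -0.00, with 5th and 95th percentiles of -0.22 and 0.20 and a median SE of 0.098.

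The replicate numbers in the titles bore on this count, because APPKO and WT arrays of the same number deviated from their group means together. With the number as a block and only these 8 arrays in the fit, 6 genes passed (0.0514%), all lower in APPKO. They were App, 4 genes of oligodendrocytes and myelin (Cldn11, Myrf, Ugt8a and Tspan2) and Idi1 of the isoprenoid pathway. With the same block on all 16 arrays, and with the 8 arrays but no block, App alone passed. Without APPKO array 2, in a fit with no block, 16 genes passed (0.137%), again all lower in APPKO, and 8 of them were on the list of oligodendrocyte and myelin genes. That array had the highest mean of this list in its group, so leaving it out widens the difference. With any other single APPKO or WT array left out, App alone passed.

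Oligodendrocytes wrap axons in myelin, a stack of membrane rich in cholesterol and galactolipids and held together by a small set of membrane proteins. Transcripts of this cell type lay mostly lower in APPKO. Of 57 listed genes, 47 were tested, and 43 of these had a negative log2 fold change, where 51.8% of all genes tested did. At an unadjusted p below 0.05, 25 were lower in APPKO and 0 were higher, against backgrounds of 3.16% and 2.01%. Members of the list varied together between arrays, so these counts do not come from independent genes. The list was also chosen with earlier results of these data known, so the counts are descriptive. None passed the adjusted test in the fit over 16 arrays, where the lowest adjusted p on the list was 0.758. The median log2 fold change of the list was -0.29, beside -0.00 for all genes. Genes without a test included Gjb1, Hapln2, Klk6, Tnfaip6 and Nkx6-2, which lay below the filter.

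The regulators of the lineage varied in size of difference. Myrf, the transcription factor that drives myelin gene expression in maturing oligodendrocytes, read 634.9, 863.8, 674.5 and 527.9 in APPKO, against 1130, 1298, 980.9 and 1106 in WT. It was the one gene of the list whose arrays did not overlap. Its log2 fold change was -0.75 ± 0.20, and with the replicate block on the 8 arrays it fell by 0.75 ± 0.09 with an adjusted p of 0.0115. Olig1, a factor of the whole oligodendrocyte lineage, read 6416, 7274, 6982 and 6382 in APPKO, against 7584, 7949, 8199 and 7098 in WT, with 1 APPKO array above the lowest WT array and a log2 fold change of -0.19 ± 0.06. The related Olig2 (-0.14 ± 0.09) and the lineage factor Sox10 (-0.26 ± 0.13) overlapped more. Of the 6 factors tested, 5 had a negative log2 fold change. Olig1 and Olig2 also lie within 10 Mb of App on chromosome 16, so their values cannot be separated from that position.

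Of 14 tested genes of the myelin membrane, 13 had a negative log2 fold change, the lowest at -0.64. Mag, an adhesion protein that faces the axon, read 2158, 3988, 2732 and 3125 in APPKO, against 3931, 4579, 4291 and 4029 in WT. Mog, a glycoprotein of the outermost myelin layer, read 1178, 2297, 1135 and 1495 in APPKO, against 2310, 2894, 2217 and 1829 in WT. Cldn11, the tight junction claudin of myelin, read 2988, 4930, 3193 and 3896 in APPKO, against 4812, 6595, 4709 and 5150 in WT. For each of the 3 genes, APPKO array 2 was the highest of its group and lay within the WT range, while WT array 2 was the highest of the WT group. The log2 fold changes were -0.52 ± 0.12 for Mag, -0.64 ± 0.17 for Mog and -0.52 ± 0.13 for Cldn11. With the replicate block on the 8 arrays, Cldn11 fell by 0.52 ± 0.05 with an adjusted p of 0.00576, whereas Mag and Mog had adjusted p-values of 0.110 and 0.112.

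Tspan2, a tetraspanin of myelinating cells, read 3028, 5122, 3304 and 3619 in APPKO, against 4699, 6087, 5145 and 4513 in WT. It fell by 0.46 ± 0.07 in the blocked fit on 8 arrays, with an adjusted p of 0.0497. Mal, a proteolipid of compact myelin, read 6177, 12220, 5230 and 6978 in APPKO, against 10250, 13930, 11100 and 9285 in WT, and again APPKO array 2 lay within the WT range. Its log2 fold change was -0.60 ± 0.20. Opalin, an oligodendrocyte membrane protein, read 677.9, 1229, 618.9 and 698.5 in APPKO, against 1111, 1307, 1080 and 887.2 in WT (-0.48 ± 0.17), with the same array inside the WT range. Mobp had -0.39 ± 0.15 and Cnp -0.16 ± 0.09. The abundant Mbp, which joins the cytoplasmic faces of the membrane, differed least, with 26170 to 30890 in APPKO, 27560 to 31280 in WT and a log2 fold change of -0.05 ± 0.07. Its signals were near the brightest on the arrays. Gjc3, a connexin of oligodendrocytes, was the exception among 14 membrane genes with a positive log2 fold change (0.26 ± 0.21), at dim signals of 100.5 in APPKO and 83.59 in WT on average.

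The enzymes of myelin lipids were uniformly on the negative side, with 8 of 8 tested genes below zero and 6 at an unadjusted p below 0.05. Ugt8a, which makes galactosylceramide, read 6063, 9879, 8174 and 7861 in APPKO, against 9006, 12220, 9813 and 10050 in WT, and only APPKO array 2 exceeded a WT array. In the blocked fit on 8 arrays it fell by 0.37 ± 0.05 with an adjusted p of 0.0395. Fa2h, which hydroxylates the fatty acids of these lipids, had a log2 fold change of -0.31 ± 0.13, and Gal3st1, which sulphates them, -0.22 ± 0.11. Aspa, which splits N-acetylaspartate in oligodendrocytes, read 381.2, 807.0, 390.1 and 418.7 in APPKO, against 602.6, 859.6, 574.2 and 549.6 in WT. Every APPKO array but array 2 lay below the WT arrays. Among genes of the cytoskeleton and other functions, Gsn, an actin-severing protein, had a log2 fold change of -0.56 ± 0.16 and Ermn, a late marker of myelinating cells, -0.65 ± 0.28. Ppp1r14a, a phosphatase inhibitor, had -0.55 ± 0.20, while Car2 (-0.01 ± 0.08) lay at WT level.

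**Figure D2:**
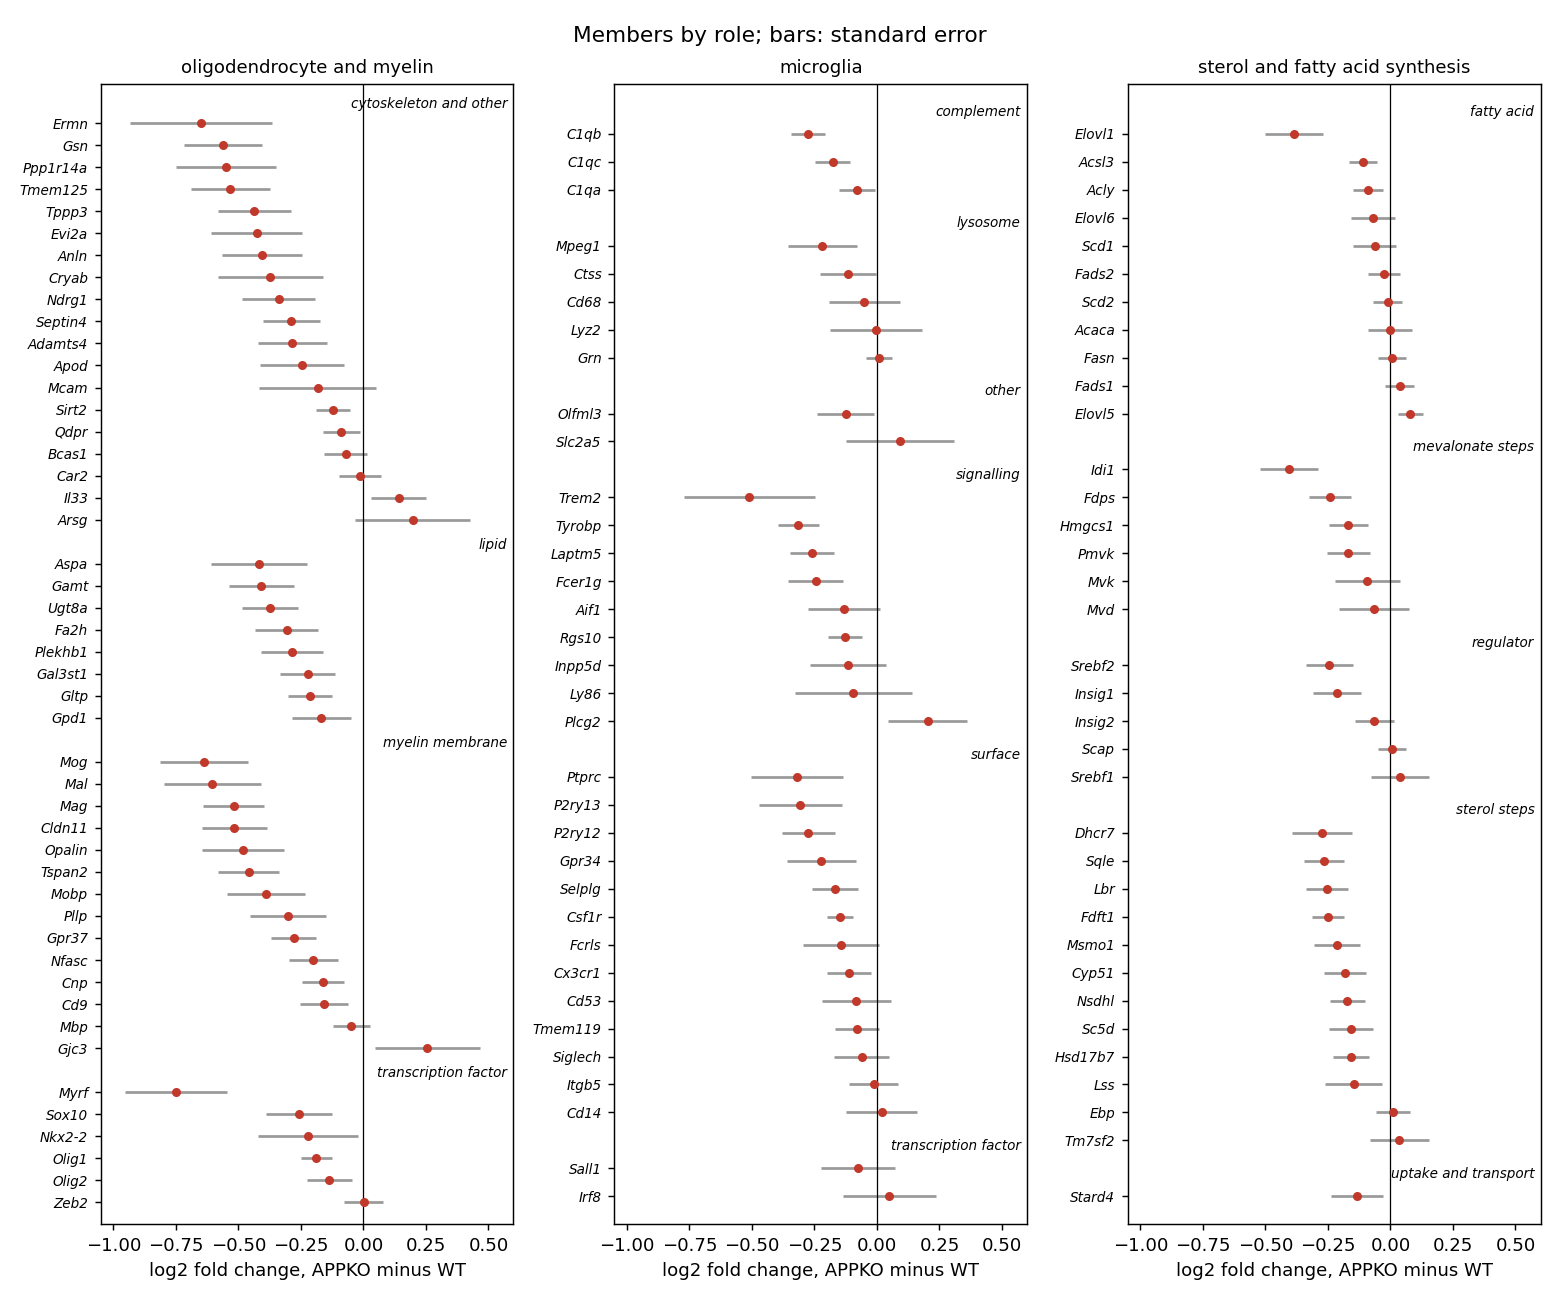
Log2 fold change of APPKO minus WT (horizontal axis) for every tested member of 3 gene lists, grouped by role, with bars for the standard error. Members with a negative value number 43 of 47 for oligodendrocytes and myelin, 29 of 34 for microglia and 28 of 35 for sterol and fatty acid synthesis.

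For the myelin list, number 2 was the highest array of both groups, while the other numbers did not keep the same order. Averaged over the members, log2 signal was 10.395, 10.971, 10.508 and 10.575 in APPKO arrays 1 to 4, against 10.840, 11.102, 10.911 and 10.760 in WT arrays 1 to 4. APPKO array 2 thus lay above 3 WT arrays, but below the WT array of its own number. The median log2 difference of the list within number 1 was -0.39, within number 2 -0.12, within number 3 -0.48 and within number 4 -0.18. All 4 differences were negative for 30 of the 47 genes (63.8%), where 8.27% of all genes tested were lower in APPKO in all 4 pairs, and all 4 were positive for 0, where the background was 7.76%. In the blocked fit on 8 arrays, 36 of the 47 were lower at an unadjusted p below 0.05, beside 4.75% of all genes. Single arrays moved the count of 25 without a block. It was 35 without APPKO array 2, 16 without APPKO array 1 and 15 without WT array 2.

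**Figure D3:**
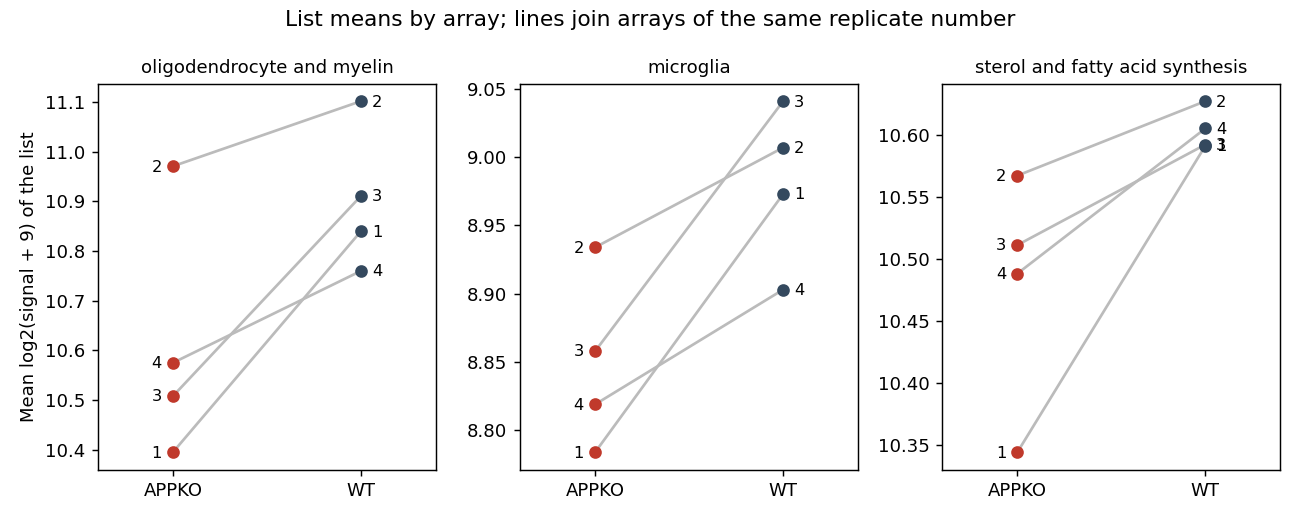
Mean log2(signal + 9) of 3 gene lists (vertical axis) on each APPKO and WT array, labelled by replicate number, with lines joining arrays of the same number. Every line runs higher at its WT end, and for the myelin list array 2 is the highest of both groups.

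The promoters of Mag and Mog are shown because these myelin genes had low signals on the same APPKO arrays, and because they hold the short sequence CTGGNAC. This is a loose form of the core bound by MYRF, with any base allowed at N, so not every match need fit that core. A link with the Myrf transcript was not tested. The stretches are the 150 bases before the annotated start, from RefSeq on GRCm38.p6, on the minus strand at chr7:30914923-30915072 for Mag and at chr17:37023399-37023548 for Mog. Capitals mark the motif on either strand.
Mag: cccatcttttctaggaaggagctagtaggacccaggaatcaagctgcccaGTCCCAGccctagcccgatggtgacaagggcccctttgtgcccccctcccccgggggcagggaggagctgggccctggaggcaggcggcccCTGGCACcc
Mog: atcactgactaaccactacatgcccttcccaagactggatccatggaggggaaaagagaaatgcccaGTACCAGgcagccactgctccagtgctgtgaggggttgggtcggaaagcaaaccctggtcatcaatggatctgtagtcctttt
The motif begins 100 and 9 bases before the start of Mag and 83 bases before that of Mog. Of 57 listed genes, 40 matched the promoter table, with 61 windows reaching 250 bases before a start. The motif stood in 15 of these windows (24.6%), of 13 genes, and in 16.1% of all 32851 windows. It was chosen for search with the fold changes known, and a match describes letters and not binding.

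A separate measure of App loss came from N-dCKO against APLP2KO, which shares no array with APPKO and WT and also differs by App. Its arrays carry an Aplp2 deletion in both groups. The genotype given for N-dCKO names a plain App deletion and the series title a neuronal conditional one, so which cells lost App there is not known, and this bears on genes of cells other than neurons. App averaged 2191 in N-dCKO and 19650 in APLP2KO, a log2 fold change of -3.16 ± 0.07. It was 1 of 3 genes that passed there (0.0257%), with Defb11 and Cldn2, a claudin of choroid plexus. The contrast also differed in choroid plexus RNA, for Ttr read 109.8, 283.3, 34290 and 714.6 in N-dCKO, against 33730, 26840, 35060 and 31220 in APLP2KO. Ttr was thus low on every N-dCKO array but array 3. The median of the choroid plexus list was -1.72 with 16 of 16 below zero, and that of the leptomeningeal list -0.33 with 13 of 14. The median log2 fold change of the myelin list was -0.31 in N-dCKO against APLP2KO, beside -0.29 in APPKO against WT. The sign was the same for 43 of 47 members, where 55% of all genes tested had the same sign in both. With N-dCKO array 3 as the one array of its group, the myelin median was -0.31 and the choroid plexus median -0.31. Without that array they were -0.34 and -2.13, and 35 genes passed in place of 3, while 8 passed with array 3 alone, whose spread is then assumed to be that of the other groups. Mag averaged 2972 in N-dCKO and 4281 in APLP2KO (log2 fold change -0.53 ± 0.12), Mal 6011 and 9563 (-0.69 ± 0.20) and Mog 1526 and 2084 (-0.46 ± 0.17). Myrf was an exception in size, at -0.26 ± 0.20 there and -0.75 ± 0.20 in APPKO against WT. No gene passed the test of the difference between the contrasts by limma, with 484 at an unadjusted p below 0.05 (4.15% of all genes), and of the myelin list 0 did so even at an unadjusted p below 0.05.

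**Figure D4:**
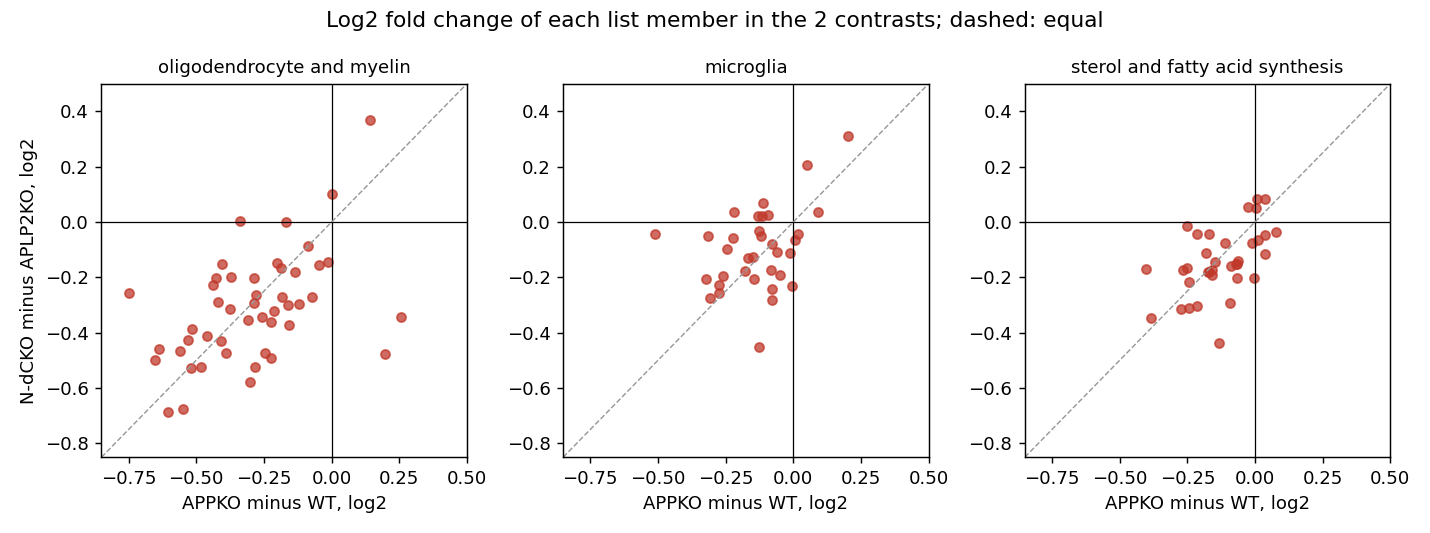
Log2 fold change of each list member in APPKO minus WT (horizontal axis) and in N-dCKO minus APLP2KO (vertical axis), with a dashed line where both are equal. Members at the lower left are lower with App loss in both, and 43 of 47 myelin genes, 27 of 34 microglial genes and 30 of 35 sterol and fatty acid genes have the same sign in both contrasts.

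Markers of neighbouring cell types differed to varying degrees. Oligodendrocyte precursors had 8 of 13 tested markers below zero and a median log2 fold change of -0.03. Cspg5 had 0.09 ± 0.07, Pdgfra, the growth factor receptor of these cells, 0.02 ± 0.10, and Gpr17 -0.12 ± 0.12. Their marker Enpp6, which is on in newly forming oligodendrocytes, read 528.5, 765.2, 797.2 and 787.8 in APPKO, against 874.7, 886.2, 945.0 and 995.2 in WT, with no overlap and a log2 fold change of -0.38 ± 0.13. Averaged over its probe sets above the filter, however, Enpp6 had -0.11. Choroid plexus markers had a median of -0.33, with 14 of 16 below zero but 0 at an unadjusted p below 0.05, also with the 8 APPKO and WT arrays alone. The median was -0.07 without APPKO array 1, -0.13 without WT array 2, -0.51 without WT array 3 and -0.53 without APPKO array 4. Their mean log2 signal ran from 8.202 to 9.314 in APPKO and from 8.666 to 9.591 in WT, a spread within each group wider than the difference between them. The abundant Sostdc1 had a log2 fold change of -0.20 ± 0.23 and Slc4a2 of -0.18 ± 0.13, both with overlapping arrays. In numbers 1 and 2 the choroid plexus list had median log2 differences of -1.34 and -0.86, and in numbers 3 and 4 of 0.36 and 0.37.

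Ependymal markers were below zero in 11 of 11 tested genes, with a median of -0.24, which was -0.04 without APPKO array 1. The brightest were Mia (-0.07 ± 0.18), Rarres2 (-0.22 ± 0.23) and Tmem212 (-0.26 ± 0.19), whose arrays overlapped. Foxj1, the regulator of motile cilia, read 81.71, 132.2, 119.5 and 159.5 in APPKO, against 172.5, 173.9, 188.8 and 160.1 in WT, with a log2 fold change of -0.50 ± 0.21. The ependymal mean was 6.930 in APPKO array 1, while the other APPKO arrays read 7.587 to 7.687 and the WT arrays 7.636 to 7.852. Leptomeningeal markers had a median of 0.09, at 0.00 with median centring, -0.01 without APPKO array 4 and between 0.02 and 0.22 without any other single array. Their brightest gene, the prostaglandin synthase Ptgds, read 17050, 16420, 8639 and 15410 in APPKO, against 15580, 12780, 5420 and 16130 in WT (0.27 ± 0.28), low on array 3 of both groups. The matrix protein Dcn had -0.07 ± 0.08, and the growth factor Igf2 read 2308, 2342, 2477 and 3055 in APPKO, against 2329, 2244, 1424 and 2139 in WT. Medians of markers of tissue next to the hippocampus were -0.01 for the striatum (7 genes) and 0.00 for the thalamus and habenula (9 genes, -0.09 with median centring). The part of choroid plexus, ependymal and leptomeningeal RNA in the myelin result was not tested.

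Microglia, the resident phagocytes of the brain, made up a further group on the negative side. Of 45 listed genes 34 were tested, of which 29 had a negative log2 fold change and 0 passed the adjusted test, with a median of -0.12. At an unadjusted p below 0.05, 7 were lower in APPKO and 0 higher, beside 3.16% and 2.01% of all genes. The arrays did not overlap, with APPKO lower, for 3 of the 34, beside 1.57% of all genes. Differences within all 4 replicate numbers were negative for 12 (35.3%), beside 8.27%. Without APPKO array 1 the count of 7 was 3. This list too was chosen with earlier results of these data known. Its genes need not vary independently, so the counts are descriptive.

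The genes whose arrays did not overlap were C1qb, Tyrobp and Csf1r. C1qb, a chain of the complement protein C1q, read 1110, 1260, 1238 and 1141 in APPKO, against 1551, 1355, 1458 and 1392 in WT, a log2 fold change of -0.28 ± 0.07. Tyrobp, the adaptor that signals for the receptor Trem2, read 607.7, 815.9, 626.3 and 677.7 in APPKO, against 839.6, 860.2, 823.1 and 856.2 in WT (-0.31 ± 0.08). Without APPKO array 2, Tyrobp fell by 0.40 ± 0.07 with an adjusted p of 0.0310 by limma. That array was the APPKO array nearest WT for Tyrobp, so leaving it out widens the difference. Tyrobp passed in no other fit, with an adjusted p of 0.262 in the blocked limma fit on 8 arrays. Csf1r, the receptor for the growth factors on which microglia depend, read 4327, 5085, 4798 and 4861 in APPKO, against 5146, 5205, 5440 and 5309 in WT (-0.15 ± 0.05). The other C1q chains had smaller differences, with -0.18 ± 0.07 for C1qc and -0.08 ± 0.07 for C1qa.

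Markers of resting microglia did not share 1 size of difference. The purine receptor P2ry12 read 819.0, 983.5, 1208 and 1058 in APPKO, against 1154, 1179, 1265 and 1289 in WT, with 1 APPKO array inside the WT range (-0.27 ± 0.11). The fractalkine receptor Cx3cr1 read 699.5, 704.8, 681.3 and 690.6 in APPKO, against 787.4, 825.9, 796.5 and 614.4 in WT, so that WT array 4 lay below all APPKO arrays. Tmem119, a surface marker of resident microglia, had a log2 fold change of -0.08 ± 0.09. The signalling genes Laptm5 (-0.26 ± 0.09), Fcer1g (-0.24 ± 0.11) and Trem2 (-0.51 ± 0.26), the last at dim signals, were on the negative side, Ly86 had -0.09 ± 0.24, and Plcg2 was above zero (0.20 ± 0.16). Genes of the lysosome ranged from -0.22 ± 0.14 for Mpeg1 through -0.12 ± 0.11 for Ctss to 0.01 ± 0.05 for Grn. The list mean of log2 signal was 8.981 in WT, 8.849 in APPKO, 8.766 in APLP2KO and 8.666 in N-dCKO. APLP2KO, which carries no App deletion, thus also lay below WT, and below APPKO. In N-dCKO against APLP2KO the list median was -0.10 and 26 of 34 members were negative. Tyrobp, at -0.05 ± 0.08 there, was the 1 member whose fold changes in the contrasts differed at an unadjusted p below 0.05 by limma, with a difference of -0.26 ± 0.12 between them and no pass after adjustment.

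Genes of sterol and fatty acid synthesis formed the third such group. Cholesterol is made from acetyl-CoA through mevalonate and squalene, the brain makes its own, and much of it goes into myelin. Of 41 listed genes 35 were tested, 28 had a negative log2 fold change, and the list median was -0.13. At an unadjusted p below 0.05, 14 were lower in APPKO and 0 higher, beside 3.16% and 2.01% of all genes, and none passed the adjusted test over 16 arrays. The arrays did not overlap, with APPKO lower, for 4 members, beside 1.57% of all genes. The list median was -0.09 without APPKO array 1. The list mean was lower on every APPKO array (10.344 to 10.567) than on any WT array (10.591 to 10.627). The count of 14 was 7 without APPKO array 1, 9 without WT array 2 and 9 without WT array 4. As for the other 2 lists, the choice of members was made with earlier results of these data known. The genes need not vary independently, so the counts are descriptive.

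Among the mevalonate steps, all 6 tested genes were on the negative side. Idi1, which isomerises isopentenyl diphosphate, read 1554, 2523, 2179 and 1900 in APPKO, against 2214, 3119, 2721 and 2661 in WT, with APPKO array 2 inside the WT range. Its log2 fold change was -0.40 ± 0.12, and in the blocked fit on 8 arrays it fell by 0.40 ± 0.06 with an adjusted p of 0.0360. Fdps, the next synthase of the pathway, had -0.24 ± 0.08. Hmgcs1, which makes the substrate of the rate-limiting reductase, read 9802, 12570, 13040 and 11760 in APPKO, against 12100, 13730, 13640 and 13330 in WT (-0.17 ± 0.08).

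The committed sterol steps gave 10 of 12 genes below zero, 8 of them at an unadjusted p below 0.05. Fdft1, which makes squalene, read 2654, 2977, 2770 and 2417 in APPKO, against 3340, 3273, 3117 and 3104 in WT, with no overlap (-0.25 ± 0.06). Sqle, which oxidises squalene, read 1393, 1823, 1786 and 1946 in APPKO, against 2054, 2001, 2071 and 2176 in WT, again with no overlap (-0.27 ± 0.08). Nsdhl, a later sterol dehydrogenase, read 1010, 1136, 1121 and 1000 in APPKO, against 1146, 1203, 1275 and 1184 in WT (-0.17 ± 0.07). Lbr (-0.25 ± 0.08), Dhcr7 (-0.27 ± 0.12), Msmo1 (-0.21 ± 0.09) and Cyp51 (-0.18 ± 0.08) had similar log2 fold changes with overlapping arrays. Fdft1, Sqle, Nsdhl and Acsl3, which activates fatty acids (-0.11 ± 0.06), were the 4 members without overlap.

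The regulators were divided. Srebf2, the transcription factor of cholesterol synthesis, had a log2 fold change of -0.24 ± 0.09, and its retention factor Insig1 -0.21 ± 0.10, while Srebf1, which acts mainly on fatty acid genes, had 0.04 ± 0.12. Fatty acid enzymes lay closer to WT than the sterol steps, with a median of -0.03 over 11 genes against -0.18 over 12. Fasn, the fatty acid synthase, had 0.01 ± 0.06 and Scd2, the main brain desaturase, -0.01 ± 0.06. Elovl5, an elongase of polyunsaturated chains, had 0.08 ± 0.05. Elovl1, which elongates saturated chains to the lengths found in myelin, was the exception at -0.38 ± 0.12. In N-dCKO against APLP2KO, the list median was -0.15 with 31 of 35 members negative.

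The Hmgcs1 promoter is shown because it was the 1 promoter of the list with the sterol regulatory element TCACNCCAC, the site of the SREBP factors. The 150 bases before its start lie on the plus strand at chr13:119690201-119690350 (RefSeq, GRCm38.p6), with the element in capitals.
Hmgcs1: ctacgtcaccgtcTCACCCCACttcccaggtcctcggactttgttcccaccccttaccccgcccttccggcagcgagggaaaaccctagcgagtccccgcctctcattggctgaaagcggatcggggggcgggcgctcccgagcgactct
The element begins 137 bases before the start. Of the 41 listed genes, 30 matched the promoter table, and the element stood in 1 of their 39 windows (2.56%) and in 1.05% of all 32851 windows, on either strand.

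**Figure D5:**
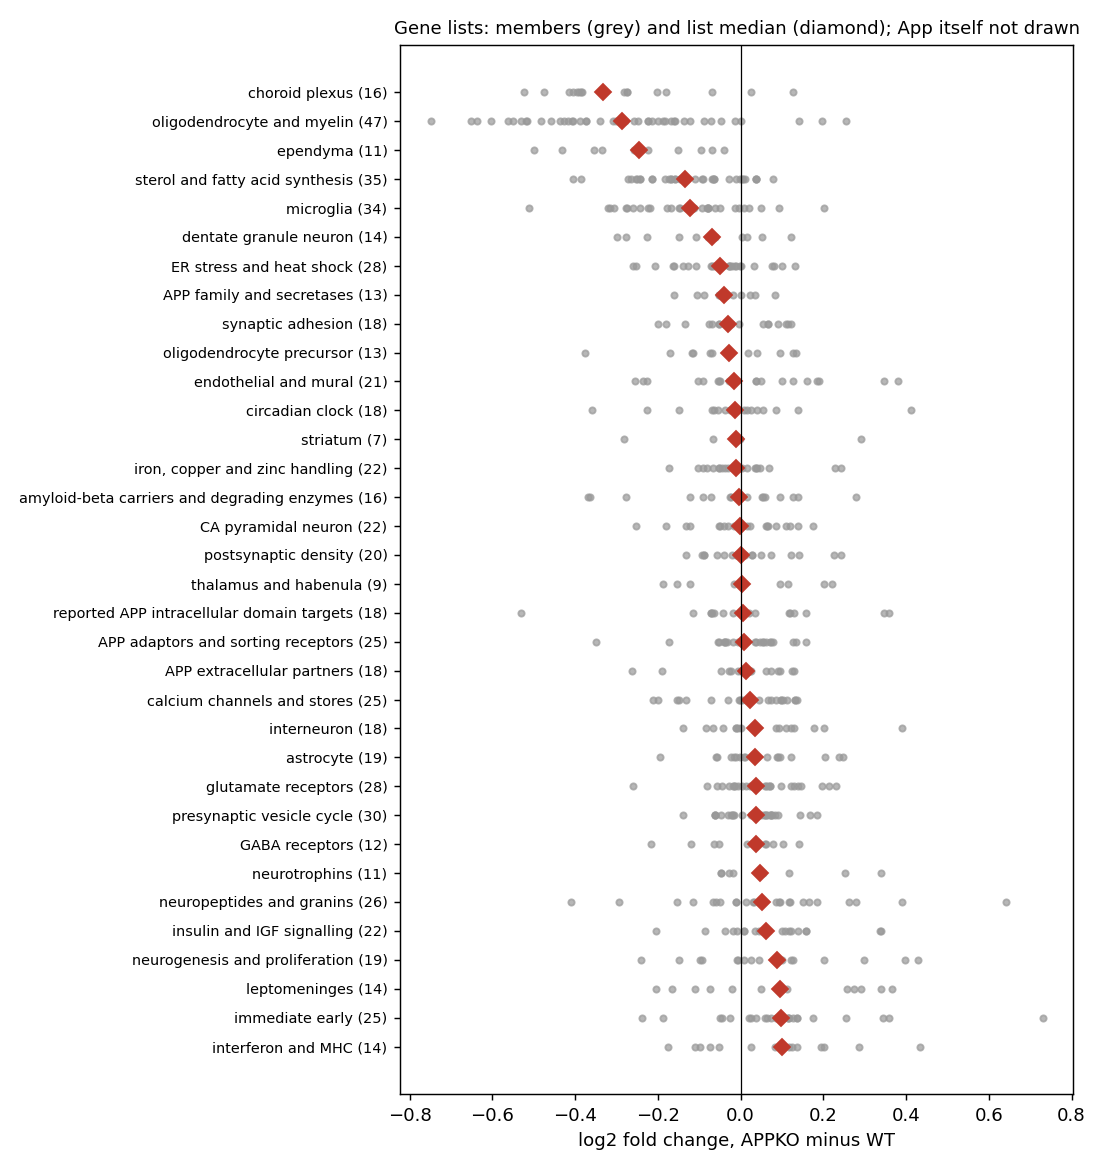
Log2 fold change of APPKO minus WT (horizontal axis) for members of the 34 gene lists with at least 5 tested genes (grey points) and the list median (diamonds), with the number of tested genes in brackets. The lowest medians are those of choroid plexus (-0.33), oligodendrocytes and myelin (-0.29), ependyma (-0.24), sterol and fatty acid synthesis (-0.13) and microglia (-0.12), and 15 medians between 0.00 and 0.09 turn negative with median centring.

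Genes around the precursor protein itself lay near WT as groups. Adaptors and sorting receptors (25 tested) had a median log2 fold change of 0.01 (-0.08 with median centring), extracellular partners (18 tested) of 0.01 (-0.08), and genes reported as targets of the intracellular domain (18 tested) of 0.01 (-0.09). The brightest members of these lists, among them the adaptor Klc1 (0.07 ± 0.06), the BRI family proteins Itm2b (0.06 ± 0.06) and Itm2c (0.01 ± 0.07), the contactin Cntn1 (0.02 ± 0.07), the receptor Gabbr1 (0.06 ± 0.07), reelin, Reln (0.13 ± 0.09), Stmn1 (0.12 ± 0.06) and the kinase Gsk3b (0.12 ± 0.06), had overlapping arrays. Among the reported targets, the tetraspanin Cd82 had the lowest value, -0.53 ± 0.16. It read 318.2, 546.5, 343.9 and 406.4 in APPKO, against 603.0, 712.9, 524.3 and 482.5 in WT, with APPKO array 2 inside the WT range. The other targets ranged up to 0.36.

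Carriers and degrading enzymes of amyloid-beta had a median of -0.00 over 16 genes, with 2 genes lower and 2 higher whose arrays did not overlap, beside 1.57% and 1.06% of all genes. The abundant inhibitor Cst3 (0.06 ± 0.07) and the chaperone Clu (-0.02 ± 0.06) lay near WT. Ece2, an endothelin-converting enzyme that cleaves amyloid-beta, read 145.9, 144.5, 165.9 and 155.3 in APPKO, against 181.4, 213.0, 217.7 and 186.2 in WT (-0.36 ± 0.13, but -0.13 as the mean over its probe sets). Plat, tissue plasminogen activator, read 1421, 1515, 1408 and 1490 in APPKO, against 2002, 1747, 1644 and 1697 in WT (-0.28 ± 0.09). Both were lower on every APPKO array. Mmp14, a membrane-bound metalloproteinase, read 498.0, 459.3, 490.6 and 494.9 in APPKO, against 409.0, 410.9, 392.8 and 383.0 in WT (0.28 ± 0.11). Apoe, the main lipid carrier made by astrocytes, read 13560, 13690, 13600 and 13310 in APPKO, against 12850, 12310, 12550 and 13030 in WT (0.09 ± 0.04). Both were higher on every APPKO array, and none of the 4 passed the adjusted test. With median centring, Mmp14 had 0.19 and Apoe 0.00.

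Astrocyte markers lay on both sides of zero. Of 19 tested, 12 were positive and 7 negative, with 5 higher and 1 lower at an unadjusted p below 0.05, beside 2.01% and 3.16% of all genes, and the median was 0.04 (-0.06 with median centring). The brightest, the glutamate transporter Slc1a2 (0.09 ± 0.07), Aldoc (0.09 ± 0.06) and Clu, had overlapping arrays. Gja1, the main astrocyte connexin, read 12200, 12300, 12710 and 11830 in APPKO, against 11020, 11230, 11530 and 11310 in WT, with no overlap (0.12 ± 0.05). With median centring, Gja1 had 0.03. The water channel Aqp4 read 4539, 5000, 4941 and 5362 in APPKO, against 3939, 5042, 3891 and 3916 in WT (0.25 ± 0.10), where WT array 2 lay among the APPKO arrays. The intermediate filament Gfap had a log2 fold change of 0.24 ± 0.10 with overlapping arrays. The lower one was the calcium-binding protein S100b, with 2929, 3426, 2904 and 3126 in APPKO, against 3298, 3802, 3567 and 3493 in WT (-0.19 ± 0.07), and APPKO array 2 alone lay within the WT range.

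Neuronal lists had medians within 0.1 of zero. Among hippocampal principal neurons, dentate granule markers had a median of -0.07 with 10 of 14 below zero, and CA pyramidal markers of -0.00. The brightest were Calb1 (0.00 ± 0.05), C1ql3 (-0.15 ± 0.07) and Stxbp6 (-0.07 ± 0.06) of the dentate list and Pcp4 (-0.01 ± 0.15), Nnat (0.12 ± 0.08) and Neurod6 (0.02 ± 0.07) of the CA list. Dsp, a desmosomal protein found in dentate granule neurons, read 1189, 1028, 954.7 and 1109 in APPKO, against 1275, 1430, 1258 and 1299 in WT, with no overlap (-0.30 ± 0.12), while Fibcd1 of CA1 neurons was higher on all APPKO arrays (0.11 ± 0.07). With median centring, Fibcd1 had 0.02. Glutamate receptors (28 tested) and presynaptic genes (30 tested) each had a median of 0.04, which is -0.05 with median centring. The glutamate receptor subunits Gria2 and Gria1 had 0.07 ± 0.05 and 0.06 ± 0.05, the metabotropic receptor Grm5 0.06 ± 0.05 and the vesicle fusion proteins Snap25 and Syt1 0.04 ± 0.05 and 0.08 ± 0.06. Dnm1, which pinches off recycled vesicles, had 0.06 ± 0.08. Immediate early genes had 20 of 25 members above zero and a median of 0.10, at 0.00 with median centring, and 0 passed the adjusted test. The median was -0.04 without APPKO array 2 and 0.03 without WT array 1, and the list mean was 9.483, 10.149, 9.380 and 9.674 in APPKO, against 9.365, 9.882, 9.441 and 9.579 in WT. Their brightest members were Egr1 (0.12 ± 0.16), Egr3 (0.02 ± 0.09) and Homer1 (0.07 ± 0.06). Vgf, a neuronal granin induced by activity, read 4220, 3685, 4089 and 4158 in APPKO, against 3467, 3112, 3159 and 3739 in WT, with 1 array of each group overlapping (0.26 ± 0.07).

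All genes whose arrays did not overlap, App aside, were also ranked by unadjusted p. The 15 lowest in p with APPKO below WT had log2 fold changes between -0.24 and -0.89 and adjusted p-values from 0.698 to 0.826. Of these, 12 had the same sign in N-dCKO against APLP2KO, beside 55% of all genes. They included C1qb, Tyrobp, Fdft1 and Myrf, described above. The top of this order was the ubiquitin ligase Marchf8, with 1193, 1304, 1257 and 1330 in APPKO, against 1580, 1696, 1455 and 1615 in WT (-0.32 ± 0.07). Hirip3, a histone chaperone partner, read 401.2, 445.1, 429.4 and 385.6 in APPKO, against 805.5, 641.7, 612.4 and 551.8 in WT (-0.63 ± 0.14), but 0.02 ± 0.14 in N-dCKO against APLP2KO. Lgi3, a secreted leucine-rich repeat protein of the brain, read 1209, 1429, 1201 and 1362 in APPKO, against 1500, 1666, 1639 and 1688 in WT (-0.32 ± 0.08, and -0.20 as the mean over its probe sets). In the other contrast Lgi3 had -0.27 ± 0.08.

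The remaining members of this group were Rida (-0.31), the ubiquitin ligase Trim13 (-0.49), the mitochondrial carnitine carrier Slc25a20 (-0.24), the acyl-CoA thioesterase Acot3 (-0.89), the tetraspanin Tspan15 (-0.40), Rflna (-0.80), Ddc, which makes dopamine and serotonin (-0.36), and Zfp853 (-0.80), all as log2 fold changes. Acot3, Rflna and Zfp853 were dim, with means of 58.56, 108.8 and 82.75 in APPKO and 114.0, 189.0 and 149.0 in WT, the APPKO means close to or under the filter signal of 88.15. Trim13 and Tspan15 had similar values in N-dCKO against APLP2KO, at -0.41 ± 0.12 and -0.30 ± 0.11. Tspan15, which guides ADAM10 to its substrates, read 417.2, 608.5, 538.1 and 498.5 in APPKO, against 640.7, 789.9, 632.4 and 663.3 in WT. Every APPKO array was below every WT array.

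The 15 lowest in p with APPKO above WT had log2 fold changes from 0.16 to 0.69 and adjusted p-values from 0.758 to 0.826, and 10 had the same sign in N-dCKO against APLP2KO. Hopx, a homeodomain protein of astrocytes and neural stem cells, read 6767, 7482, 7333 and 6752 in APPKO, against 4920, 5929, 6049 and 6209 in WT (0.30 ± 0.08), and had 0.24 ± 0.08 in the other contrast. Sepsecs, which makes the selenocysteine transfer RNA, read 385.1, 302.8, 331.7 and 260.2 in APPKO, against 205.2, 230.6, 237.6 and 218.4 in WT (0.49 ± 0.11), but 0.01 ± 0.11 in the other contrast. Lgi2, a relative of Lgi3, read 1976, 1878, 1898 and 2007 in APPKO, against 1755, 1445, 1682 and 1617 in WT (0.26 ± 0.08). The arrays of the groups were thus separate for all 3 genes, and for Lgi2 and Lgi3 in opposite directions.

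The others in this order were the mitochondrial S-adenosylmethionine carrier Slc25a26 (0.45), Cyb5d2 (0.49), Nsun5 (0.57), the adaptor subunit Ap1g2 (0.68), the hypothalamic peptide gene Hcrt (0.64), Lpp (0.42), the DNA polymerase Polh (0.69), the glutamine transporter Slc38a1 (0.16), Gas1 (0.33), Cmtr2 (0.49), the endothelial adhesion molecule Icam2 (0.42) and the survival factor Bcl2 (0.34). Nsun5, Ap1g2, Hcrt, Polh and Cmtr2 were dim in both groups, with Polh the brightest of them in APPKO at a mean of 152.1, beside 89.68 in WT. For Polh and Icam2 the other contrast had the opposite sign, at -0.30 ± 0.21 and -0.34 ± 0.14. As means over their probe sets above the filter, Slc25a26 had 0.19, Lpp 0.24 and Slc38a1 0.1. With median centring, Slc38a1 had 0.06 and Lgi2, described above, 0.17. The 1 other Slc25a26 probe set above the filter did not share the direction of the brightest.

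Genes near App on chromosome 16 were examined separately. Within 10 Mb of App, 61 other genes were tested, of which 26 had a negative log2 fold change, 0 passed the test and the median was 0.01. The arrays did not overlap for 3 of them, 1 lower and 2 higher, beside 1.57% and 1.06% of all genes. Cfap298, a gene of motile cilia, read 450.1, 464.3, 520.3 and 547.2 in APPKO, against 625.8, 604.7, 550.4 and 601.6 in WT (-0.26 ± 0.10). Vps26c, a subunit of an endosomal recycling complex, read 962.5, 996.3, 946.6 and 1111 in APPKO, against 867.1, 921.8, 887.5 and 936.1 in WT (0.15 ± 0.07). With median centring, Vps26c had 0.06. Adamts5, an aggrecan-cleaving protease 0.91 Mb from App, was dim, at 99.89 on average in APPKO and 82.32 in WT (0.25 ± 0.18). Olig1 and Olig2 of the myelin list also lie in this window, 6.32 and 6.27 Mb from App, with overlapping arrays. App aside, Olig1 had the smallest unadjusted p of the window, 0.00624 by limma, with an adjusted p of 0.826. Whether position bears on their values was not tested. Over the whole chromosome, the window included, the arrays did not overlap in either direction for 15 of 374 tested genes, where they did not for 307 of 11664 genes in all.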

How the data were processed

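The authors deposited intensity signals (linear scale) from MAS5, a tool that the submitters' processing notes name without a version. Each array had been scaled, and no further normalization was applied. Of 45101 probe sets, 34958 had 1 gene symbol, 932 had several and 9211 had none in the annotation table; the genes of 34754 were found by gene number in the RefSeq table of GRCm38.p6, which changed 0 symbols. Signals were taken as log2(signal + 9), a scale that shrinks the differences of dim genes. Probe sets were kept if their log2 average over the 16 arrays reached the middle value of all probe sets, 6.60 or a signal of 88.15. This left 22551, and the brightest one stood for each of 11664 genes. limma 3.58.1 in R 4.3.3 was fitted to all 16 arrays with 1 mean per group and variances moderated along an intensity trend (12 residual and 19.4 moderated degrees of freedom). Adjusted p-values (Benjamini-Hochberg, all genes, two-sided) were held against 0.05. The value after ± is the SE of a log2 fold change. The number of arrays, 4 per group, limits the precision. Single probe sets and array ratios were compared by exact permutation tests with scipy. On data simulated for APPKO against WT over the same genes, with 100 genes changed by 0.5 and 100 by 1 on the log2 scale together, the fit recovered 77 and 96 of them, with 10 false calls among 183. Fewer changed genes would make the adjusted threshold stricter. The simulated noise was independent between genes and arrays, without the shared deviations seen here, so this recovery need not hold for the genes named.

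Same-numbered APPKO and WT arrays correlated in their deviations from the group means (r = 0.30, 0.29, 0.20 and 0.19 for numbers 1 to 4), and each array correlated best with its own number, so the numbers were taken to pair the samples. This pairing comes from the data, and the labels do not say what a number marks. Over all groups of the series it was weaker. The mean r between arrays of different groups was 0.08 for the same number and -0.03 for different numbers. Fits with the number as a block are given where they alter a call. Named genes are App and its family, the secretases, the 15 genes of smallest p in each direction among those whose arrays do not overlap, any member of the secretase, myelin, microglia and sterol lists, the 3 brightest members of the other lists, and genes within 10 Mb of App whose arrays do not overlap. Enpp6, Foxj1, Cd82, Ece2, Plat, Mmp14, Apoe, Gja1, Aqp4, Gfap, S100b, Dsp, Fibcd1, Vgf, Defb11 and Cldn2 were named after their values were seen. The members and lists were chosen with earlier results of these data known. Alternatives were median centring or quantile normalization, pseudocounts of 0, 2 and 36, no filter or a 75th percentile filter, averaging a gene's probe sets, no variance trend, array weights, the block, the 8 arrays alone, and each array left out in turn; leaving out N-dCKO arrays and list medians without single arrays were added after seeing the data. Some listed genes are not reported here.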

Additional observations from a re-analysis of the deposited data

Results flagged for a closer look

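Among 370 sets of 4 arrays examined (150 genes and 35 lists in APPKO and in WT), 14 held an array far from the other 3, where chance gives about 1 in 20. In APPKO, array 1 stood low for Rarres2, at 123 beside 302 to 332 on the other arrays, for Enpp6, at 529 beside 765 to 797, and for the mean log2 signal of the ependymal list, at 6.93 beside 7.587 to 7.687. The same array stood high for Tmem119, at 397 beside 388 to 389. APPKO array 2 stood high for Aspa, at 807 beside 381 to 419, and for Nsun5, at 126 beside 106 to 107. APPKO array 3 stood high for Aplp1, at 15800 beside 14900 to 15000, and low for Ptgds, at 8640 beside 15400 to 17100, while APPKO array 4 stood high for the leptomeningeal list, at 9.846 beside 9.471 to 9.521 in mean log2 signal.

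In WT, array 1 stood low for Bcl2, at 248 beside 330 to 344, and array 4 for Cx3cr1, at 614 beside 787 to 826. WT array 2 stood high for Aqp4, at 5040 beside 3890 to 3940, and for Cmtr2, at 114 beside 88.5 to 89.4, and low for the list of thalamus and habenula, at 9.097 beside 9.233 to 9.261 in mean log2 signal. The causes were not tested.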

How the results depend on the processing

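App was lower in APPKO past the threshold in every alternative run, with log2 fold changes from -3.49 (mean over probe sets) to -2.84. The number of genes that passed was 1 in all but 2 settings. It was 6 with the replicate block on the 8 APPKO and WT arrays, and from 1 to 16 when each array was left out in turn, with 16 only without APPKO array 2. The replicate block changed no other call among the results named. The myelin list kept a negative median throughout. Median centring moved the median of all genes to -0.10, and with it the microglia list to -0.21 and the sterol and fatty acid list to -0.22. Of 3093 single-gene values under the alternatives, App aside, 53 moved by more than the spread between arrays. Of these, 40 moved under median centring, 11 with the mean over probe sets and 2 with quantile normalization. A further 15 passed the threshold only under an alternative. Some of the 53 changed sign, such as Aplp1 (-0.06 with median centring) and Aplp2 (0.09 with the mean over probe sets). The cause of these shifts was not tested. Differences of dim genes are limited by background. In N-dCKO against APLP2KO, in an alternative chosen after seeing the data, the sterol and fatty acid median of -0.15 was -0.11 with N-dCKO array 3 alone.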
